A study of Mus musculus with 10 samples.

Results

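Annexins are calcium-dependent proteins that bind acidic phospholipids such as phosphatidylserine on the inner face of membranes. The 9 annexin genes described here, Anxa1, Anxa2, Anxa3, Anxa4, Anxa5, Anxa6, Anxa7, Anxa8 and Anxa11, were taken by gene name from a table that holds 52324 gene names, of which 13 begin with Anxa. Their transcripts were summed per gene in all 10 libraries. The list was drawn up with these levels in view, so every annexin value below is a description. Test calls of members are counted beside those of all genes, but nothing is read from them.

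The libraries come from tumours that 4T1 cells, a mouse line of mammary carcinoma, formed under the skin. They were taken at day 14 and fall into 5 groups of 2. The negative control received PBS according to the series' design text. The treated groups received Free-MK1775, Free-MK1775+NLG919, Lipo-MK1775 or Lipo-MK1775+NLG, the last of which the design text spells with NLG919. MK1775 inhibits WEE1, a kinase that holds back entry into mitosis, and NLG919 acts on the IDO1 pathway of tryptophan breakdown. Nothing in the labels gives the mouse strain, age or dose, the make-up of the 2 forms, or whether a group's libraries stem from different animals. P-values therefore measure only how far these samples spread, which may be technical.

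Annexins bridge membranes, cap wounds in the plasma membrane and organise the cortical cytoskeleton, and several of them work in pairs with small S100 proteins. Anxa1 is induced by glucocorticoids and signals through formyl peptide receptors. Anxa2 pairs with S100a10 and holds plasminogen at the cell surface. Anxa5 binds phosphatidylserine that dying cells expose, which is why it is used as a stain for apoptosis.

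Levels are given as rescaled FPKM, that is, fragment counts scaled to transcript length and library size, summed per gene and divided by the sum of all rows outside the mitochondrial genome, times 1000000. Differences are group means of log2(rescaled FPKM + 1), which understates the change of low genes. They are given with the standard error (SE) of limma, a linear model fitted to all 10 libraries. Mitochondrial transcripts made up 47.3% to 64.1% of summed FPKM in 3 libraries, both of Lipo-MK1775 and replicate 2 of Free-MK1775+NLG919, and 2.88% to 4.82% in the other 7. The same 3 libraries held 12203 to 12677 genes at a rescaled FPKM of 1 or more, against 13541 to 14314 in the other 7, and the effect of Lipo-MK1775 and that of the high share cannot be told apart. The median log2 difference from the control over all 15469 genes tested was -0.78 in Lipo-MK1775, -0.44 in Free-MK1775+NLG919, -0.06 in Free-MK1775 and -0.02 in Lipo-MK1775+NLG. Each annexin difference is best read against that median. A second scale, in which each library is divided by its median ratio to all others (median-of-ratios scaling), brings these medians close to 0. Wee1 lay between 8.08 and 31.8 rescaled FPKM, and Ido1 was listed at 0 in replicate 2 of Free-MK1775+NLG919 and lay between 2.72 and 9.59 elsewhere.

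Start site regions of 3 annexins are printed here because their genes gave the clearest contrasts below. Anxa8 and Anxa11 were both low in Free-MK1775+NLG919 and Lipo-MK1775, and Anxa2 took a larger share of the family in Lipo-MK1775. RefSeq windows of 300 bases, 250 before and 50 from the annotated start on, were at hand for 7 of the 9 genes, on build GRCm38.p6, whereas the deposited table uses GRCm39. Capitals mark matches on either strand to the motifs searched: the TATA box TATAAA, the CCAAT box CCAAT, the GC box GGGCGG, the AP-1 site TGANTCA, the E-box CACGTG and the glucocorticoid receptor palindrome. A match is only a run of letters, not a bound site. The windows lie at chr14:34085729-34086028 (plus strand) for Anxa8, chr14:25841905-25842204 (plus strand) for Anxa11 and chr9:69453433-69453732 (plus strand) for Anxa2.
Anxa8: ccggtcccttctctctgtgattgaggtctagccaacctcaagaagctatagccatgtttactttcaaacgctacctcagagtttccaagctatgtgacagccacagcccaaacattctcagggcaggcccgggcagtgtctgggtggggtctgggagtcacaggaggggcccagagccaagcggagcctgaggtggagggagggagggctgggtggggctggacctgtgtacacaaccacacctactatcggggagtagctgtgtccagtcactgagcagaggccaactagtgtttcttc
Anxa11: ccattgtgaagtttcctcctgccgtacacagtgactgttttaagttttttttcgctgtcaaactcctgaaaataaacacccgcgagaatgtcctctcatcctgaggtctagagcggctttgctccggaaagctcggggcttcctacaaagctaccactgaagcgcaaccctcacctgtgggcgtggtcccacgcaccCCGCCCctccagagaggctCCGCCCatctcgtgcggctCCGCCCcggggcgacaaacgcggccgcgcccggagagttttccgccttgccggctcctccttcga
Anxa2: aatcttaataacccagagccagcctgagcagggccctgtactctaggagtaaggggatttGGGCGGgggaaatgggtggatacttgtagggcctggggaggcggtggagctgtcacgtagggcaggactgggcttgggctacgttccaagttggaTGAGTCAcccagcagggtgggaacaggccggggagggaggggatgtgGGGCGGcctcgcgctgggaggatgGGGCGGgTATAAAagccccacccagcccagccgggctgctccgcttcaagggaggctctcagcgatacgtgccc

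The Anxa8 window held none of the 6, and its 5 CpG pairs compare with a median of 7 over all 32851 windows of that length. In the Anxa11 window 3 GC boxes started at -53, -34 and -15, counted from the annotated start with no position 0, and there were 25 CpG pairs. The Anxa2 window carried a TATA box at -17, an AP-1 site at -95 and 3 GC boxes at -190, -48 and -24. Anxa1, whose window is not printed, had a TATA box at -32 and no other match. Over all windows of that length 13.6% held TATAAA, 35.7% held GGGCGG and 7.81% held TGANTCA.

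Most of the annexins were abundant transcripts. Levels in FPKM are per length and can be compared between genes. In the control Anxa2 (861 ± 164, SD, n = 2) and Anxa5 (856 ± 10.2, SD, n = 2) led, and their ranges overlapped. They were followed without overlap by Anxa1 (590.3 ± 106), Anxa3 (342 ± 44.5), Anxa11 (273 ± 19.0), Anxa7 (199 ± 1.93) and Anxa4 (141 ± 16.4), all SD with n = 2. Anxa6 (112 ± 7.61) and Anxa8 (89.5 ± 51.0) closed the order with overlapping ranges. The order in Lipo-MK1775 differed: Anxa2 led alone, Anxa1 and Anxa5 overlapped behind it, and Anxa6 stood above Anxa7 and Anxa11. Both orders sum named transcripts only. With transcripts added that the authors assembled without a gene name, Anxa2 was at 1304 and 1505 in the control, above Anxa5. Anxa2 then had the largest share of the family in every library, so its first place was not particular to Lipo-MK1775. The other annexins were low. Anxa9 reached at most 1.63 rescaled FPKM in named transcripts and 9.44 with assembled ones added. Anxa10 was listed at 0 in every library, and Anxa13 was above 0 in a single library. As these are bulk tumours, fewer cells of a type and less RNA per cell cannot be told apart for any of them.

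**Figure D1:**
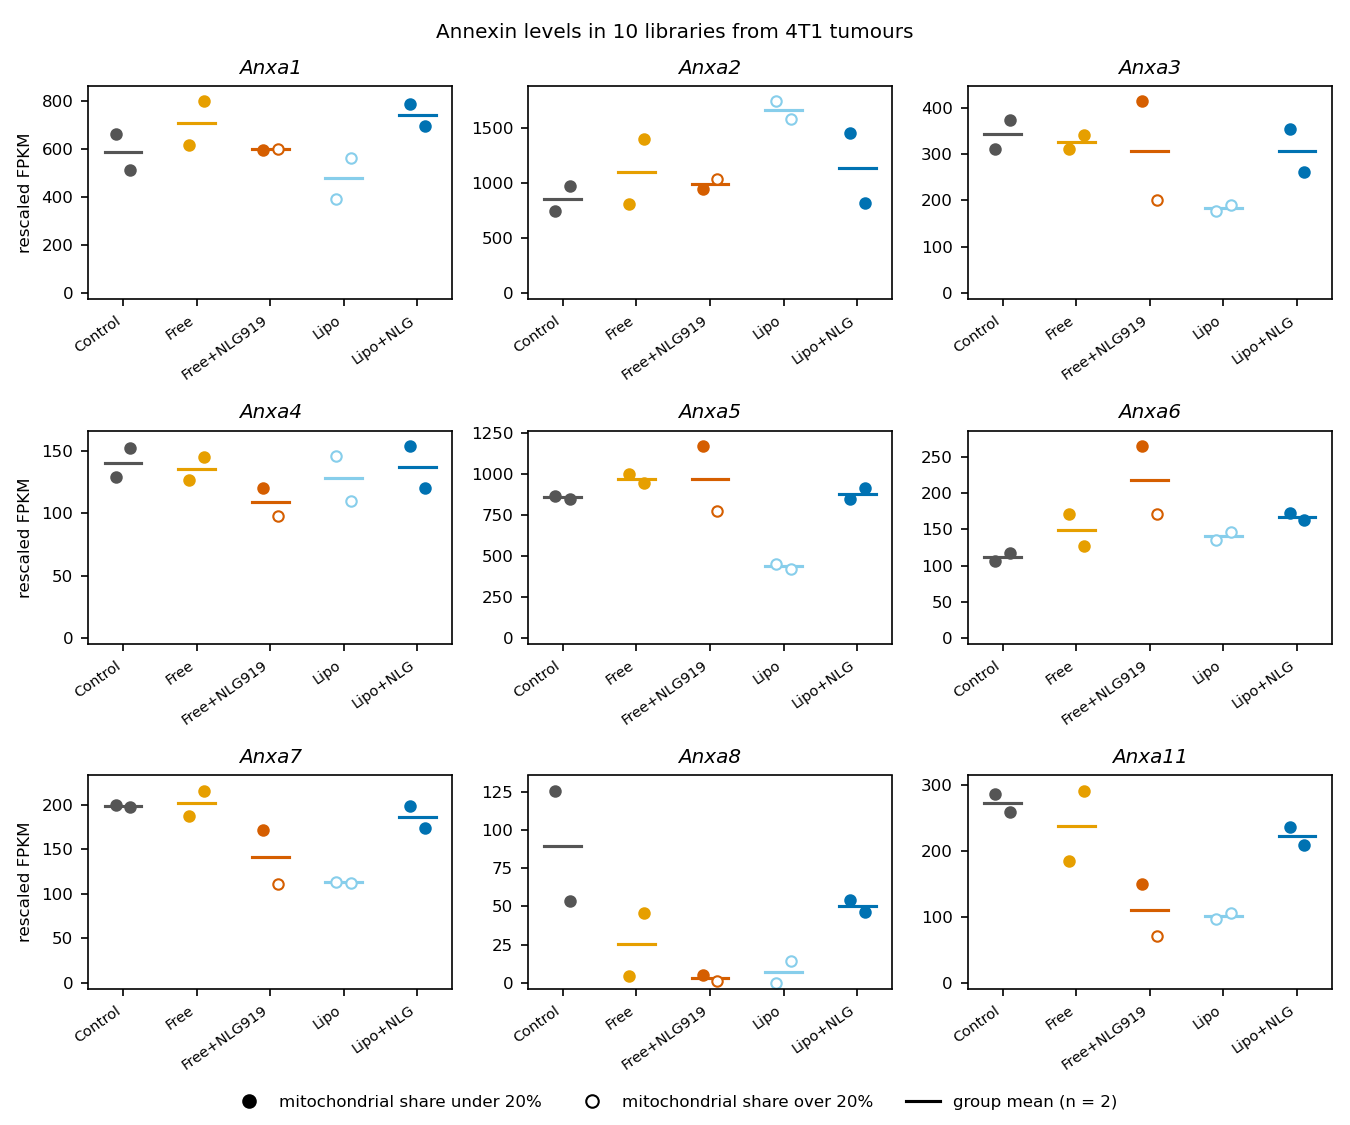
Level of each of the 9 annexins in rescaled FPKM (vertical axes from about 0) in the 5 groups, with a point per library, a bar at the mean of the 2 libraries, and open points for the 3 libraries whose mitochondrial share was 47.3% to 64.1%. Anxa5, Anxa7 and Anxa11 of Lipo-MK1775 lie below both controls, and Anxa6 of all 8 treated libraries lies above both.

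The counts of members are given here beside those of all genes. In Lipo-MK1775 against the control 5 of 9 were lower and 2 of 9 higher without overlap of the 2 libraries on either side, where 67.2% of all genes tested were lower and 8.4% higher in that way. The median annexin difference was -0.81, beside -0.78 for all genes. In Free-MK1775+NLG919 4 of 9 were lower and 1 higher, beside 40.7% and 9.87% of all genes, with a median of -0.24. In Free-MK1775 1 was lower and 2 higher, beside 20.2% and 13.1%, with a median of 0.02. Lipo-MK1775+NLG gave 1 lower and 2 higher, beside 23.4% and 20.7%, with a median of -0.04. Against Free-MK1775, Lipo-MK1775 had 5 lower and 1 higher, beside 65.9% and 7.52% of all genes, and an annexin median of -0.83 beside -0.71. By limma at an adjusted p under 0.05, 0 members were called in Free-MK1775, Free-MK1775+NLG919 and Lipo-MK1775+NLG against the control, beside 0.0129%, 0.0194% and 0.00646% of all genes in either direction (303, 3353 and 390 genes at an unadjusted p under 0.05). In the same fit 4 members were called lower in Lipo-MK1775 against the control (Anxa5, Anxa7, Anxa8 and Anxa11), where 19.4% of all genes were called lower and 1.62% higher, 21% in all. In Lipo-MK1775 against Free-MK1775, Anxa5 was called lower, beside 2.91% of all genes lower and 3.39% in either direction. Since the members were chosen on these libraries, nothing is read from these counts.

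**Figure D2:**
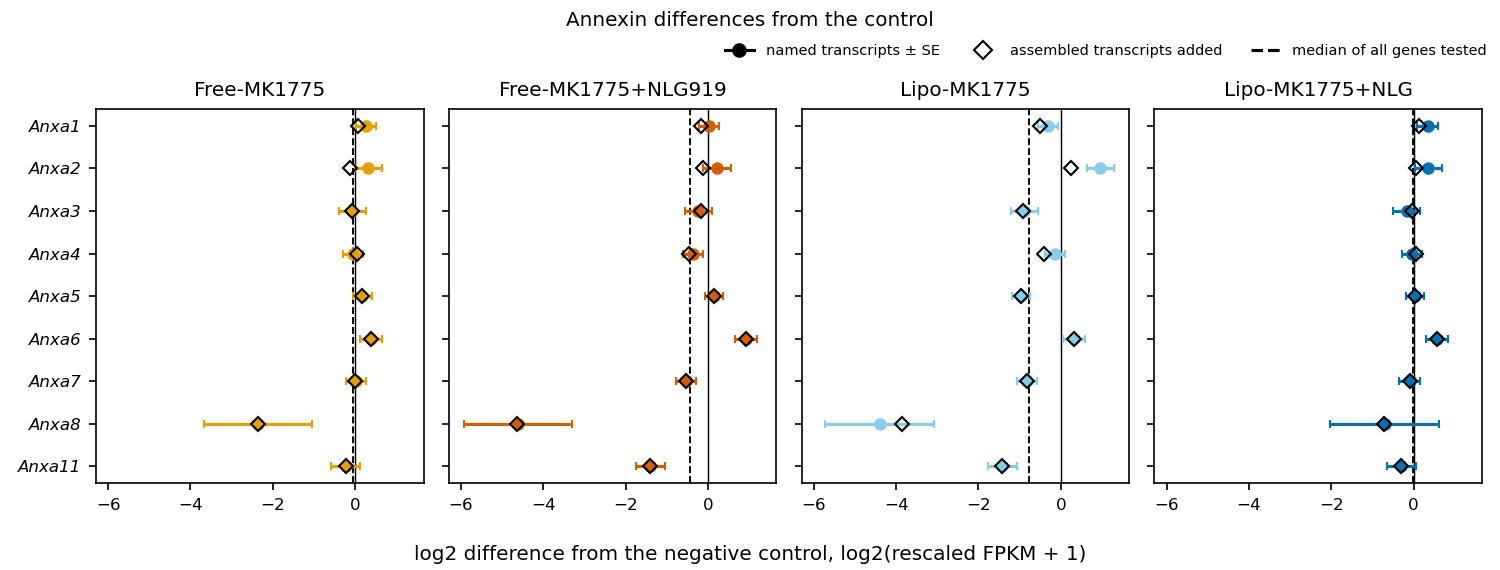
Log2 difference of each annexin from the negative control in the 4 treated groups (horizontal axis, log2(rescaled FPKM + 1)), with filled points and limma SE for named transcripts, diamonds for the sum with assembled transcripts added, and a dashed line at the median of all 15469 genes tested. In Lipo-MK1775 that line lies at -0.78, Anxa2 and Anxa6 lie to the right of 0 for named transcripts, and Anxa8 lies far to the left at -4.40.

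Anxa2 encodes the heavy subunit of the complex that S100a10 completes at the cell surface. Named Anxa2 transcripts were at 745 and 976 rescaled FPKM in the control, 812 and 1401 in Free-MK1775, 948 and 1042 in Free-MK1775+NLG919, 1746 and 1589 in Lipo-MK1775, and 1457 and 824 in Lipo-MK1775+NLG. On this scale both Lipo-MK1775 libraries stood above every other library. The log2 difference from the control was 0.96 ± 0.34 (SE, n = 2 against 2), and 1.84 with median-of-ratios scaling. On FPKM as deposited it was 0.51, and the Lipo-MK1775 libraries, at 355 and 425, lay above both controls but below replicate 2 of Free-MK1775 (446) and replicate 1 of Lipo-MK1775+NLG (479).

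That difference depends on how transcripts at the locus are summed. The locus (chromosome 9, plus strand, 69360902 to 69399077 on GRCm39) holds 6 named transcripts and 2 that the authors' assembly added without a gene name. Both assembled forms have 13 exons, as does the leading named transcript of 1447 bases, and are 1443 and 1442 bases long. Together they made up 0.129% to 43.9% of the locus, depending on the library. The 1443-base form was at 364, 369, 121, 371 and 447 rescaled FPKM in 5 libraries (both controls, replicate 1 of Free-MK1775, replicate 1 of Free-MK1775+NLG919 and replicate 2 of Lipo-MK1775+NLG) and listed at 0 in the other 5. With both assembled forms added, Anxa2 was at 1304 and 1505 in the control, 1072 and 1558 in Free-MK1775, 1432 and 1149 in Free-MK1775+NLG919, 1748 and 1592 in Lipo-MK1775, and 1467 and 1469.7 in Lipo-MK1775+NLG. The Lipo-MK1775 libraries were still the highest, but the difference from the control shrank to 0.25.

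A share within the family avoids the scaling between libraries. Anxa2 made up 53.6% and 48.8% of the summed 9 annexins in the 2 Lipo-MK1775 libraries and 21.7% to 34.2% in the other 8. With assembled transcripts added the shares were 48.7% to 53.6% in Lipo-MK1775 and 28.9% to 35.8% elsewhere, so the 2 ranges stayed apart under either sum. Such a share shows unequal change among annexins, not which of them changed. Anxa5 moved the opposite way, at 13.0% and 13.8% in Lipo-MK1775 and 19.9% to 30.4% elsewhere.

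**Figure D3:**
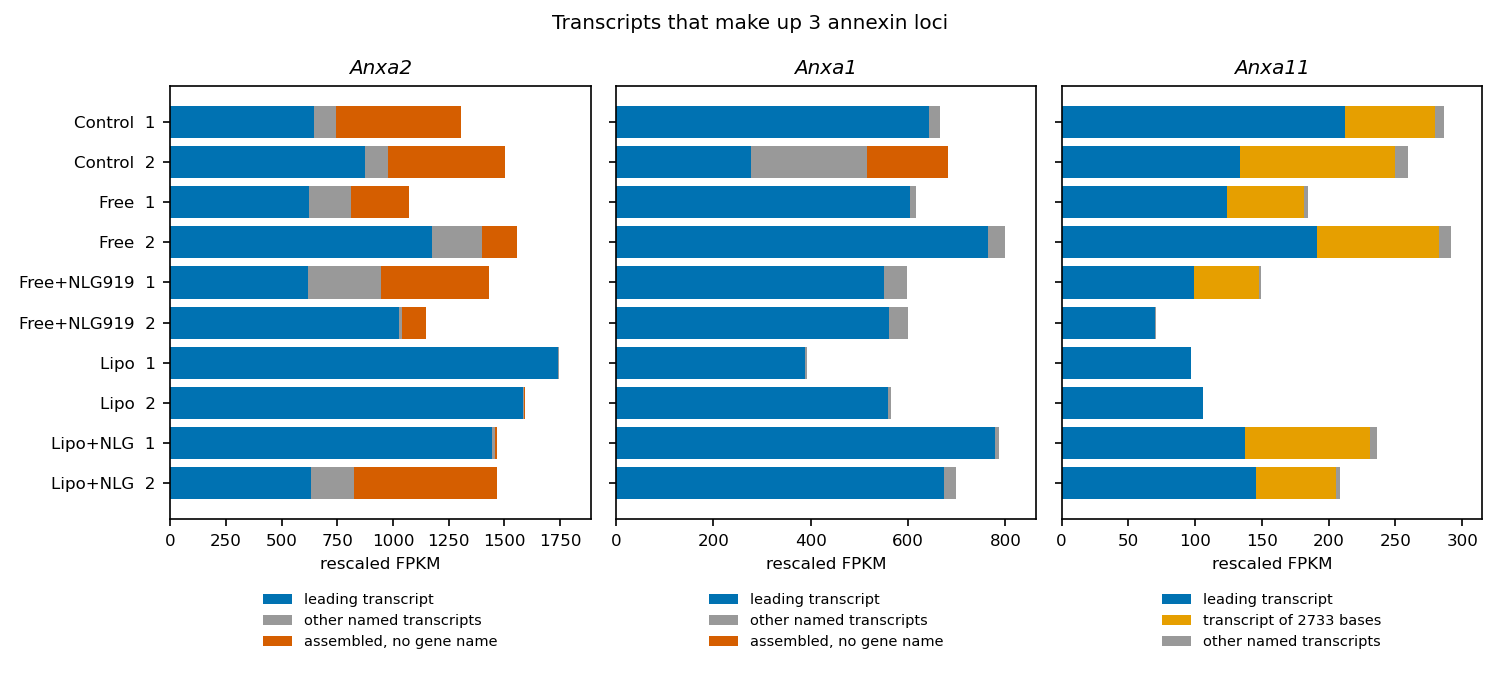
Transcripts that make up the Anxa2, Anxa1 and Anxa11 loci in each of the 10 libraries, as stacked bars of rescaled FPKM from 0 (horizontal axes), with the leading named transcript, other named transcripts, transcripts assembled by the authors without a gene name and, for Anxa11, the 2733-base transcript shown apart. Assembled Anxa2 forms range from 0.129% to 43.9% of the locus, and the 2733-base Anxa11 transcript is at most 0.0334 in the 3 libraries of high mitochondrial share.

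Anxa1, the glucocorticoid-induced member, was at 665 and 515 rescaled FPKM in the control, 617 and 799.6 in Free-MK1775, 598 and 599.9 in Free-MK1775+NLG919, 393 and 565 in Lipo-MK1775, and 787 and 698 in Lipo-MK1775+NLG. Its lowest library was a Lipo-MK1775 library, though the group overlapped the control, and both Lipo-MK1775+NLG libraries were above both controls. The differences from the control were -0.31 in Lipo-MK1775 and 0.34 in Lipo-MK1775+NLG, each ± 0.25 (SE), and leaving out a single library of the groups compared moved them to between -0.57 and -0.05 and between 0.16 and 0.52. Replicate 2 of the control was unusual in its transcripts: an assembled form stood at 167 there and at no more than 0.13 in the other 9 libraries. With that form added the control was at 666 and 682, Lipo-MK1775 came to lie below both controls (-0.52), and Lipo-MK1775+NLG stayed above them (0.14). With median-of-ratios scaling of the named transcripts the Lipo-MK1775 difference turned to 0.56. Anxa1 lies on chromosome 19 (minus strand, 20350792 to 20368308 on GRCm39).

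Anxa5, the phosphatidylserine binder, set Lipo-MK1775 apart from every other group. It was at 863 and 849 rescaled FPKM in the control, 998 and 943 in Free-MK1775, 1169 and 774 in Free-MK1775+NLG919, 451 and 423 in Lipo-MK1775, and 849 and 911 in Lipo-MK1775+NLG. Both Lipo-MK1775 libraries lay below the other 8, the lowest of which was at 774. The difference was -0.97 ± 0.22 (SE) from the control and -1.15 ± 0.22 from Free-MK1775. Relative to the median of all genes these came to -0.19 and -0.44, and with median-of-ratios scaling to -0.10 and -0.34. A single transcript of 1731 bases and 13 exons carried 99.9% or more of named Anxa5 in every library, so isoform assignment hardly enters. The gene lies on chromosome 3 (minus strand, 36503072 to 36530043 on GRCm39). The library at 774 was replicate 2 of Free-MK1775+NLG919, the third of high mitochondrial share.

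Anxa6 is the large annexin with a doubled core that tethers cholesterol-rich membranes and late endosomes. In rescaled FPKM it was the only member higher than both controls in all 8 treated libraries. How many of all genes were so was not counted. On FPKM as deposited Lipo-MK1775, at 27.5 and 39.1, overlapped the control, at 33.3 and 38.4. The rescaled values of Anxa6 were 107 and 117 in the control, 170.4 and 127 in Free-MK1775, 265 and 170.5 in Free-MK1775+NLG919, 135 and 146 in Lipo-MK1775, and 172 and 162 in Lipo-MK1775+NLG. Differences from the control were 0.39, 0.92, 0.33 and 0.57 in that order of treated groups, each ± 0.26 (SE), and on FPKM as deposited the Lipo-MK1775 difference turned to -0.12. Relative to the median of all genes they were 0.45, 1.36, 1.10 and 0.60. Leaving out replicate 1 or replicate 2 of Free-MK1775 moved its difference to 0.18 or 0.60, and without replicate 1 of Free-MK1775+NLG919 that group's was 0.60. These 4 differences share the same 2 control libraries and are not independent of each other.

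Markers of macrophages and monocytes moved with Anxa6. The summed level of the 10 markers was 2855 and 3880.2 in the control, 5567 and 3658 in Free-MK1775, 6862 and 2843 in Free-MK1775+NLG919, 3273 and 3460.1 in Lipo-MK1775, and 4838 to 4934 in Lipo-MK1775+NLG. Across the 7 libraries of low mitochondrial share Pearson's r between Anxa6 and this sum was 0.95, and across all 10 it was 0.75, with libraries that share groups and scaling. The 3 other libraries lay above the rest at a like marker level, replicate 2 of Free-MK1775+NLG919 in particular, with Anxa6 at 170.5 and the lowest marker sum. Whether these cells have a part in the Anxa6 differences was not tested. Both main Anxa6 transcripts, of 2489 and 2471 bases and read from chromosome 11 (minus strand, 54869934 to 54924271 on GRCm39), contributed, and the first made up 47.3% to 63.1% of the sum.

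**Figure D4:**
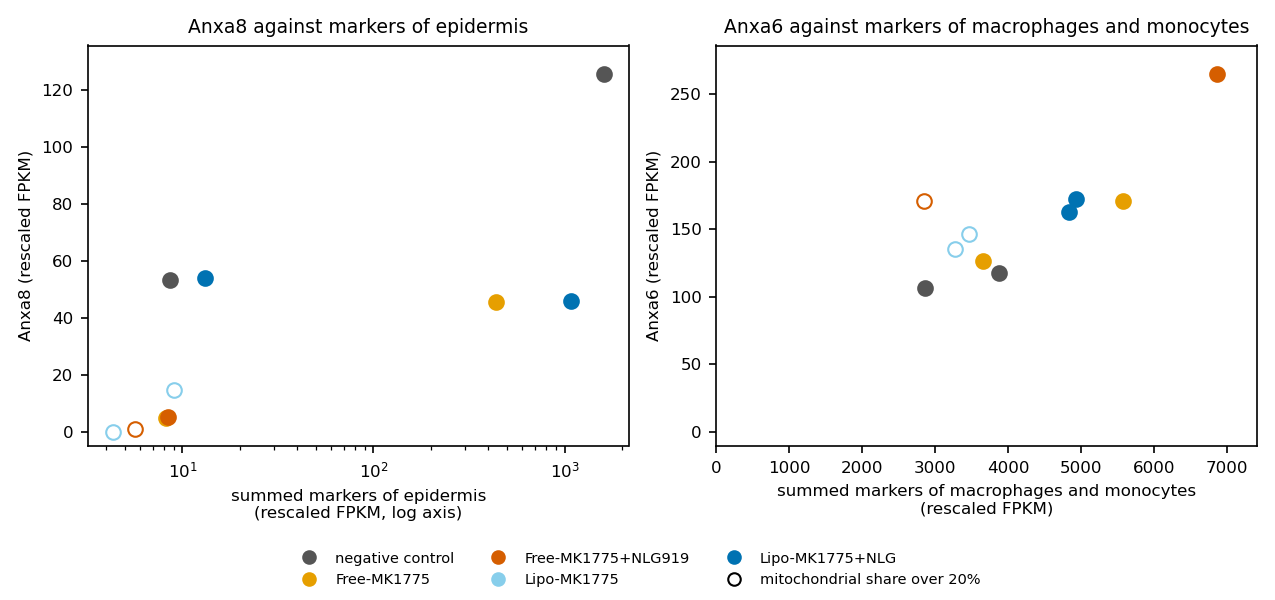
Left, Anxa8 (vertical axis, rescaled FPKM) against the summed level of 13 epidermis markers (horizontal log axis) in the 10 libraries. Right, Anxa6 against the summed level of 10 macrophage and monocyte markers, both in rescaled FPKM on linear axes. Colours give the group and open points the 3 libraries of high mitochondrial share. Anxa8 reaches 53.5 and 54.1 in 2 libraries whose epidermis sums are 8.63 and 13.1.

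Anxa8, an annexin of stratified and mammary epithelium, varied more than any other member. It was at 126 and 53.5 rescaled FPKM in the control, 4.66 and 45.5 in Free-MK1775, 5.06 and 0.889 in Free-MK1775+NLG919, listed at 0 and at 14.5 in Lipo-MK1775, and at 54.1 and 46.1 in Lipo-MK1775+NLG. All 6 libraries of Free-MK1775, Free-MK1775+NLG919 and Lipo-MK1775 lay below both controls, and Lipo-MK1775+NLG overlapped the control. Differences from the control were -2.36, -4.62, -4.40 and -0.71 for Free-MK1775, Free-MK1775+NLG919, Lipo-MK1775 and Lipo-MK1775+NLG, each ± 1.32 (SE). All of these moved with single libraries. The Free-MK1775 difference was -0.84 without its replicate 1 and -3.87 without its replicate 2. With a library left out, that of Free-MK1775+NLG919 ran from -5.46 to -3.78. That of Lipo-MK1775 was -2.42 without its replicate 1 and -6.38 without its replicate 2. That of Lipo-MK1775+NLG was -0.10 without replicate 1 of the control and -1.31 without replicate 2. In Lipo-MK1775 replicate 1, where the named transcripts were listed at 0, an assembled transcript at the locus was at 1.19, and adding it moved the Lipo-MK1775 difference to -3.85. Of the 5 lowest libraries 3 had a high mitochondrial share and 2 a low one, replicate 1 of Free-MK1775 and replicate 1 of Free-MK1775+NLG919, and the part of that share was not tested. The gene lies on chromosome 14 (plus strand, 33807938 to 33822528 on GRCm39).

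Anxa8 is also a gene of the skin's epidermis, and 13 epidermis markers were summed beside it. The sum was 1608 in replicate 1 of the control, 439 in replicate 2 of Free-MK1775 and 1079 in replicate 2 of Lipo-MK1775+NLG, and 4.31 to 13.1 in the other 7. The library with the highest sum had the highest Anxa8. Anxa8 was at 53.5 in replicate 2 of the control and 54.1 in replicate 1 of Lipo-MK1775+NLG, where the epidermis sum was 8.63 and 13.1 and 8 and 6 of 13 markers were listed at 0. In Free-MK1775+NLG919, where the group mean of Anxa8 was lowest, Krt5, Krt14, Krt15, Dsg3, Dsc3, Lor, Flg and Krtdap were listed at 0 in both libraries. In Lipo-MK1775, the group of the lowest single library, Krt15, Krt1, Dsg3, Lor, Flg and Krtdap were so listed. Replicate 1 of Free-MK1775 had 10 of the 13 markers at 0. The 8 markers of 4T1 epithelial tumour cells summed to 943 to 1901 over the 10 libraries, with 4 to 7 of the 8 at 1 or more, and r between Anxa8 and that sum was 0.78 over 10 libraries and 0.36 over the 7 of low mitochondrial share. With the epidermis sum r was 0.69 and 0.63, and with the sum of 11 neutrophil markers 0.56 and 0.65. With the macrophage and monocyte sum it was 0.01 and -0.85. The part of any of these cells in the Anxa8 differences was not tested.

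Anxa11, a partner of calcyclin that couples RNA granules to lysosomes, and Anxa7, a calcium-dependent membrane fusogen, moved together. Anxa11 was at 286 and 259 rescaled FPKM in the control, 184 and 291.5 in Free-MK1775, 149 and 70.5 in Free-MK1775+NLG919, 97.0 and 106 in Lipo-MK1775, and 236 and 209 in Lipo-MK1775+NLG. Anxa7 was at 201 and 198 in the control, 188 and 216 in Free-MK1775, 171 and 111 in Free-MK1775+NLG919, 114 and 113 in Lipo-MK1775, and 199 and 174 in Lipo-MK1775+NLG. For both genes the 4 libraries of Free-MK1775+NLG919 and Lipo-MK1775 were the 4 lowest of the 10. How many of all genes shared that was not counted, but many were lower than the control without overlap, 40.7% in Free-MK1775+NLG919 and 67.2% in Lipo-MK1775. Relative to the median of all genes Anxa7 differed by -0.09 and -0.03 in these groups, and Anxa11 by -0.96 and -0.64. Across the 10 libraries r between Anxa7 and Anxa11 was 0.96, and it was 0.87 across the 7 of low mitochondrial share. Such r were not particular to this pair. Between Anxa8 and Anxa11 they were 0.863 and 0.871, and between Anxa3 and Anxa7 0.887 and 0.0843. Anxa7 and Anxa11 both lie on chromosome 14 with Anxa8, but far apart, Anxa11 at 25842580 to 25887228 (plus strand) and Anxa7 at 20505328 to 20530201 (minus strand).

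The 2 genes differed in size of change. The Anxa11 difference from the control was -1.40 in Free-MK1775+NLG919 and -1.41 in Lipo-MK1775, each ± 0.36 (SE), and with median-of-ratios scaling -0.87 and -0.55. That of Anxa7 was -0.53 and -0.81, each ± 0.24, and came to -0.00077 and 0.0598 with median-of-ratios scaling, so for Anxa7 the direction in Lipo-MK1775 flipped with the scale. In Free-MK1775+NLG919 replicate 1 alone, a library of low mitochondrial share, Anxa11 was 0.86 below the control on the log2 scale and Anxa7 0.22 below.

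Endothelial markers, 7 genes, were summed beside the annexins. Their sum was 141 and 117 in the control, 139 and 125 in Free-MK1775, 89.1 and 73.4 in Free-MK1775+NLG919, 46.7 and 38.3 in Lipo-MK1775, and 143 and 111 in Lipo-MK1775+NLG. Over the 10 libraries its r was 0.91 with Anxa7, 0.84 with Anxa5 and 0.80 with Anxa11, and over the 7 of low mitochondrial share 0.66, -0.69 and 0.61. For the macrophage and monocyte sum r with these genes was 0.403, 0.564 and 0.234 over the 10 libraries. Over the 7 it was -0.729, 0.725 and -0.935. The part of either sum in the annexin differences was not tested.

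The isoforms of Anxa11 were also divided by library. Its 2733-base transcript was at 67.1 and 116 in the control, 57.3 and 91.7 in Free-MK1775, 48.7 and 0.0334 in Free-MK1775+NLG919, listed at 0 in both Lipo-MK1775 libraries, and at 93.3 and 59.6 in Lipo-MK1775+NLG. It was present in the 7 libraries of low mitochondrial share and near or at 0 in the other 3. The leading 2394-base transcript was present everywhere, at 69.8 to 212, and by itself was at 212 and 133 in the control and 96.6 and 106 in Lipo-MK1775. Taken by itself this transcript was also lower in both Lipo-MK1775 libraries than in both controls. An antisense gene, Anxa11os, lies over the locus and was at most 0.34, and the strand setting of the counting is not stated, so reads of the 2 cannot be told apart.

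Anxa3, an annexin of epithelial and myeloid cells, was at 311 and 374 rescaled FPKM in the control, 311 and 342 in Free-MK1775, 413 and 201 in Free-MK1775+NLG919, 177 and 189.7 in Lipo-MK1775, and 353 and 261 in Lipo-MK1775+NLG. Its 3 lowest libraries were the 3 of high mitochondrial share. The Lipo-MK1775 difference was -0.89 ± 0.33 (SE) from the control and -0.83 ± 0.33 from Free-MK1775, and came to -0.02 and -0.02 with median-of-ratios scaling. Anxa3 lies on chromosome 5 (plus strand, 96941198 to 96993966 on GRCm39).

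Anxa4, an annexin of secretory epithelia, had the narrowest range of the 9 genes. It was at 129 and 152 in the control, 127 and 145 in Free-MK1775, 121 and 98.0 in Free-MK1775+NLG919, 147 and 110.3 in Lipo-MK1775, and 154 and 121 in Lipo-MK1775+NLG. Its ranges overlapped the control in 3 of the 4 treated groups, and in Free-MK1775+NLG919 both libraries were lower (-0.36 ± 0.25, SE). Assembled transcripts made up as much as 28.8% of the locus (chromosome 6, minus strand, 86713822 to 86770566 on GRCm39), and with them added Lipo-MK1775 also lay below both controls (-0.40).

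Proteins that bind annexins include S100 proteins and the large scaffold Ahnak. Of 9 such genes, Ahnak and Ahnak2 were called lower in Lipo-MK1775 against the control and none higher by limma, beside 19.4% of all genes called lower, and none was called in the other 4 comparisons. Ahnak, which the Anxa2 complex recruits to the plasma membrane, was at 133 and 135 in the control and 35.9 and 30.9 in Lipo-MK1775, a difference of -1.98 ± 0.58 (SE, limma adjusted p = 0.0443). Ahnak2 was at 25.4 and 18.6 in the control and 1.80 and 3.92 in Lipo-MK1775 (-2.62 ± 0.52, limma adjusted p = 0.0274). The fall was not particular to Lipo-MK1775. In Free-MK1775+NLG919 Ahnak was at 39.2 and 29.1 (-1.96 ± 0.58) and Ahnak2 at 9.43 and 4.07 (-1.65 ± 0.52), and neither was called. Neither of the most abundant S100 genes with higher values passed the test. S100a6, also called calcyclin, was at 2478 and 3282 in the control and 5041 and 4267 in Lipo-MK1775, S100a4 at 1185 and 1634 against 2207 and 2067 (limma adjusted p = 0.0773 and 0.0891). S100a11, the partner of Anxa1, was at 2332 and 2074 against 1366 and 2102 (limma adjusted p = 0.45).

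S100a10 falls outside the rule for named genes and is given because it is the partner of Anxa2, after its values had been seen. It was at 764 and 877 in the control, 1065 and 963 in Free-MK1775, 1088 and 1315 in Free-MK1775+NLG919, 1122 and 1011 in Lipo-MK1775, and 998 and 977 in Lipo-MK1775+NLG. On this scale all 8 treated libraries lay above both controls, but on FPKM as deposited Lipo-MK1775, at 228 and 270.2, overlapped the control, at 239 and 287, with a lower mean. No comparison passed the test, with limma adjusted p from 0.161 to 1. Its difference in Lipo-MK1775 was 0.38 ± 0.19 (SE).

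Plasminogen activation, the process that Anxa2 and S100a10 support, had 7 of 9 listed genes at testable levels. Plau, the urokinase activator, was the 1 called, lower, beside 19.4% of all genes, and fell in Lipo-MK1775 from 282 and 291 in the control to 95.5 and 141 (-1.30 ± 0.36, limma adjusted p = 0.0393), and no other gene of the list was called in any comparison. Its inhibitor Serpine2, at 90.5 and 66.6 in the control and 46.4 and 45.4 in Lipo-MK1775, was not called (limma adjusted p = 0.32). In Free-MK1775 and Free-MK1775+NLG919 the list's median difference was 0.47 and 0.47, beside -0.06 and -0.44 for all genes, with no gene called.

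Around Anxa1, 7 of 8 formyl peptide receptor and glucocorticoid response genes were testable, and 3 were called lower in Lipo-MK1775 against the control, beside 19.4% of all genes. Per1, a clock gene that glucocorticoids induce, was at 74.7 and 49.9 in the control and 5.33 and 11.2 in Lipo-MK1775 (-2.82 ± 0.63, limma adjusted p = 0.0298). Nr3c1, the glucocorticoid receptor itself, was at 19.1 and 13.1 against 2.47 and 4.95 (-1.89 ± 0.51, limma adjusted p = 0.0384). Dusp1, a phosphatase that restrains MAP kinases, was at 78.0 and 97.2 against 19.9 and 43.2 (-1.54 ± 0.35, limma adjusted p = 0.0298). Fkbp5 and Tsc22d3, further glucocorticoid-induced genes, were not called, at 152 and 160 against 85.2 and 93.0 for Fkbp5 and 110 and 122 against 65.3 and 83.4 for Tsc22d3. The list's median was -1.20 beside -0.78 for all genes. Lower values were not confined to Lipo-MK1775, though no gene of the list was called elsewhere. Per1 was at 30.2 and 44.7 in Free-MK1775, 21.8 and 4.63 in Free-MK1775+NLG919, and 16.9 and 11.9 in Lipo-MK1775+NLG. Nr3c1 was at 5.28 and 4.50 in Lipo-MK1775+NLG (-1.52, but -0.56 with assembled transcripts added). Dusp1 was at 49.2 and 47.6 in Free-MK1775+NLG919 and 63.7 and 74.3 in Lipo-MK1775+NLG.

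Membrane repair, in which Anxa1, Anxa2, Anxa5 and Anxa6 take part, had 13 genes tested and 5 called lower in Lipo-MK1775 against the control, beside 19.4% of all genes. Myof, a ferlin that fuses vesicles to wounds, fell from 162 and 122 to 29.0 and 27.0 (-2.29 ± 0.38, limma adjusted p = 0.025). The limma adjusted p of the 5 ran from 0.025 to 0.0447. Cav1, the coat protein of caveolae, was at 73.6 and 51.5 against 23.8 and 20.7 (-1.43), and the calpain subunit Capn2 at 206 and 178 against 77.6 and 92.5 (-1.17). Smpd1, the acid sphingomyelinase, fell by 1.18 on the log2 scale, and Cavin1, the second caveola coat gene, by 0.74, though Cavin1 turned to 0.13 with median-of-ratios scaling. Capns1 and Chmp4b, an ESCRT subunit, were not called. The endothelial marker sum, at 117 and 141 in the control and 38.3 and 46.7 in Lipo-MK1775, moved with Cav1, and its part was not tested. Against Free-MK1775, 2 of the 13 were called lower, beside 2.91% of all genes, Cav1 (-1.81, limma adjusted p = 0.0411) and Myof (-1.83, limma adjusted p = 0.0467).

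Exposure and clearance of phosphatidylserine, the ligand of Anxa5, had 16 of 17 genes tested and 5 called lower in Lipo-MK1775 against the control, beside 19.4% of all genes. Ano6, a calcium-activated scramblase that exposes the lipid, was at 83.3 and 74.1 in the control and 7.95 and 21.0 in Lipo-MK1775 (-2.50 ± 0.48, limma adjusted p = 0.0272). Xkr8, the scramblase that caspases activate, was at 4.01 and 4.19 against 0.822 and 0.748 (-1.51). On the clearance side the receptor Axl fell by 1.79 on the log2 scale, from 425 and 387 to 117 and 116, and Mfge8, a bridging protein, by 1.12. The limma adjusted p of the 5 ran from 0.0272 to 0.0424. Itgb5, an integrin subunit that receives Mfge8, was not called (limma adjusted p = 0.0881). Ano6 was the member called against Free-MK1775, beside 2.91% of all genes (-2.40, limma adjusted p = 0.0448).

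Over these 5 lists 16 genes were called in Lipo-MK1775 against the control, all lower, beside 19.4% of all genes called lower, and none was called in the other 3 comparisons with the control. With median-of-ratios scaling 3 of the 16 were still called (Ahnak2, Ano6 and Myof), and with no filter on low values 2 were. Leaving out either control library, replicate 1 of Lipo-MK1775 or either Lipo-MK1775+NLG library left none of the 16 called, and leaving out replicate 2 of Lipo-MK1775 left Ano6 and Dusp1. Leaving out either Free-MK1775 library left 8. Of the 3 genes called against Free-MK1775, none was called with median-of-ratios scaling, with no filter, without a variance trend or without any single control, Free-MK1775 or Lipo-MK1775+NLG library, nor without replicate 1 of Lipo-MK1775. Without replicate 2 of Lipo-MK1775 Ano6 was still called. Genes not called in a group were not thereby unchanged there. In Free-MK1775+NLG919 Myof (-1.53), Axl (-1.20) and Plau (-1.11) were also lower, beside a median of -0.44 for all genes. Smpd1 (-0.62) and Cavin1 (-0.18) were less so. The lists were chosen with earlier results of these data known.

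The genes whose levels ran most like each annexin across the 10 libraries were taken by Pearson's r of log2(rescaled FPKM + 1), 3 for each. Anxa8 ran with Eif4ebp1, a brake on cap-dependent translation (r = 0.98), Cyp26b1, which breaks down retinoic acid (r = 0.97), and Tbc1d2 (r = 0.97). Nearest to Anxa2 were Ak8 (r = 0.93), S100a6 (r = 0.92) and Rapgef2 (r = 0.91). Anxa5 ran with Hs6st1, Arhgef39 and Adgra3 (r = 0.99 each), and Anxa11 with Togaram1, Sik3 and Dhx32 (r of 0.995 to 0.996). For Anxa7 they were Tmem198b, Arhgap18 and Gnl3l (r = 0.996 each), for Anxa3 Slc22a21, Ccndbp1 and Eif2b1 (r of 0.965 to 0.978), and for Anxa1 Pcp4l1, Mroh1 and Tmco6 (r of 0.928 to 0.951). Anxa4 was nearest to Ezr, the membrane-cytoskeleton linker ezrin (r = 0.93), then Slc22a4 and Syn1, and Anxa6 to Prtn3, a granule protease of myeloid cells (r = 0.93), then Arpc1a and Bloc1s4. All of these share the 10 libraries, their scaling and the split by mitochondrial share. They also rest on named transcripts only, while assembled forms made up 0.129% to 43.9% of the Anxa2 locus, depending on the library. Ak8, Pcp4l1 and Syn1 lay near the floor, with means of 0.664, 0.923 and 0.771 rescaled FPKM over the 10 libraries. In the 7 libraries of low share the genes nearest to Anxa6 were Cnpy4, Ncf1, a subunit of the phagocyte oxidase, and Fcgr1, an Fc receptor of macrophages (r of 0.991 to 0.995). Those nearest to Anxa8 were Kpnb1, Zswim4 and Bicra there (r of 0.995 to 0.996). For 7 of the 9 annexins, Anxa2 and Anxa8 among them, none of the 3 genes from the 10 libraries stayed in the first 3, and for Anxa7 and Anxa11 Tmem198b and Togaram1 stayed.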

How the data were processed

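RNA was prepared with an RNeasy mini plus kit and libraries with a NEBNext Ultra kit, per the labels' protocols. The deposited values are FPKM per transcript, computed by the authors with mitochondrial transcripts inside the total; FastQC, Trim Galore, HISAT2, StringTie and build GRCm39 are named in the submitters' processing notes, without versions. The strand setting and total depth are not stated there. Of 161762 transcripts, 21051 carry no gene name; the main values sum only named transcripts, and an alternative adds 14868 assembled ones to the named gene of largest overlap, leaving out 6183.

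Sums were divided by the sum over rows outside the mitochondrial genome, times 1000000. Genes at 1 or more in at least 2 libraries (15469) entered limma 3.58.1 (R 4.3.3) on log2(value + 1), pseudocount 1, with a mean per group over all 10 libraries and a variance trend; calls are at a two-sided Benjamini-Hochberg adjusted p under 0.05 over all genes tested. The fit was tested on simulated data. With 2 libraries a group no exact permutation test can reach that threshold.

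Named are all 9 annexins, the 3 most abundant members of each partner list plus every member called, and the 3 genes of highest r with each annexin; predicted genes and pseudogenes were left out of the last. Of the list genes that this rule names, 2 are counted but not reported here. The members and lists were chosen with earlier results of these data known. Same-numbered libraries deviated with r of -0.204 to 0.0654 over 10 pairs of groups, so the numbers were not taken to pair samples. Alternatives changed the scaling, pseudocount, filter, summing, variance trend, libraries in the fit and a replicate block. Tables were handled in Python 3.11.15 with pandas 2.3.3.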

Additional observations from a re-analysis of the deposited data

Results flagged for a closer look

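For 3 annexins the libraries moved oppositely, without overlap, when the second drug was added to the free and to the Lipo form. How many of all genes did so was not counted, but the median of all genes tested took the same course. Its difference from the control was -0.06 in Free-MK1775 and -0.44 in Free-MK1775+NLG919. In Lipo-MK1775 it was -0.78 and in Lipo-MK1775+NLG -0.02. The directions are therefore not particular to these annexins. The gaps below are differences of differences on the log2(rescaled FPKM + 1) scale, and they were not tested. Adding NLG919 to Free-MK1775 went with lower Anxa11 (-1.17) and adding NLG to Lipo-MK1775 with higher Anxa11 (1.12), a gap of 2.29. The Anxa7 values were -0.54 and 0.71, a gap of 1.26, and the Anxa1 values -0.23 and 0.65, a gap of 0.88. With median-of-ratios scaling Anxa11 alone kept these directions. Its differences from the control were -0.17 in Free-MK1775, -0.87 in Free-MK1775+NLG919, -0.55 in Lipo-MK1775 and -0.28 in Lipo-MK1775+NLG. In that order those of Anxa7 were 0.080, -0.00077, 0.060 and -0.081, lower with the second drug for both forms. Those of Anxa1 were 0.33, 0.56, 0.56 and 0.36, with both directions reversed. The mitochondrial share moved with the rescaled values. That share was 47.3% in 1 of the 2 Free-MK1775+NLG919 libraries, 56.0% and 64.1% in Lipo-MK1775 and under 5% in the other groups. Its part was not tested.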

How the results depend on the processing

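Each alternative changed 1 choice, but FPKM as deposited are smaller than the rescaled values, so the minimum and pseudocount of 1 were stricter there and 12345 genes were tested in place of 15469. The main counts of genes called by limma were 2, 3, 3251 and 1 for Free-MK1775, Free-MK1775+NLG919, Lipo-MK1775 and Lipo-MK1775+NLG against the control and 524 for Lipo-MK1775 against Free-MK1775. At an unadjusted p under 0.05 they were 303, 3353, 6722, 390 and 5938. For Free-MK1775 the count was 1 with FPKM as deposited, a pseudocount of 0.1, a minimum of 5, assembled transcripts, the replicate block or without the 3 libraries of high mitochondrial share, and 20 with no filter. For Free-MK1775+NLG919 it was 7 as deposited and with no variance trend, 11 with median-of-ratios scaling, 27 with no filter and 15 with assembled transcripts. For Lipo-MK1775 it was 5955 as deposited, 832 with median-of-ratios scaling (436 higher and 396 lower, against 251 and 3000 in the main values), 822 with no filter, 6520 with assembled transcripts, 2115 with the replicate block and 6782 with only the groups compared. For Lipo-MK1775+NLG the limma count was 0 with median-of-ratios scaling (521 genes at an unadjusted p under 0.05), assembled transcripts, the replicate block, no variance trend, only the groups compared or without the 3 libraries, and 20 with no filter. Against Free-MK1775 it was 5965, 138 (72 higher and 66 lower, against 74 and 450), 63, 4631, 60 and 4612 under deposited FPKM, median-of-ratios scaling, no filter, assembled transcripts, the replicate block and only the groups compared, 1093 with a minimum of 5 and 160 with no variance trend.

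The median annexin difference in Lipo-MK1775 was -1.24 as deposited, 0.0598 with median-of-ratios scaling and -0.82 with assembled transcripts. Against Free-MK1775 it was -1.32 as deposited and -0.0196 with median-of-ratios scaling, and in Free-MK1775+NLG919 it was 0.29 with that scaling. That scaling shifts nearly all genes of a library alike. Among the genes named here and called in Lipo-MK1775 it took Anxa7 to 0.0598 and Cavin1 to 0.13. Leaving out a library gave 1 to 2, 1 to 6421, 1 to 7601, 0 to 2 and 2 to 6925 calls in the 5 comparisons, and median annexin differences of -0.08 to 0.12, -0.51 to 0.031, -0.82 to -0.76, -0.19 to 0.0524 and -0.90 to -0.31. Where that left 1 library in a group, it was assumed to vary like the others. The causes were not tested. Without the 3 libraries the Lipo-MK1775 comparisons have no value. Replicate numbers were not taken to pair samples. Relative depth was 1 to 1.35 in the 3 libraries and 1.26 to 1.96 in the other 7, which limits what can be said of low genes such as Anxa8 there. Of the partner genes the replicate block kept 10 of 16 calls in Lipo-MK1775, losing Ahnak, Cavin1, Mfge8, Plau, Smpd1 and Xkr8, and of the 3 against Free-MK1775 it kept that of Cav1.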
